A study of Mus musculus with 24 samples.

Results

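The 28 genes described here are enzymes of cholesterol synthesis, the regulators of the transcription factor SREBP2 and targets of that factor, measured across Tet2 genotype and interleukin 4 (IL4) exposure in mouse macrophages. They were taken by symbol from both deposited expression tables, which list 23309 gene models each, and all 28 were found, with Msmo1 entered under its older symbol Sc4mol. By role they are 8 enzymes of the mevalonate and isoprenoid steps, 3 of the steps to lanosterol, 8 of the steps from lanosterol to cholesterol, 5 genes of sterol sensing and transcription, and 4 of sterol transport and modification.

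RNA was sequenced in 20 of the 24 samples of the series. Of these, 12 libraries came from bone marrow-derived macrophages (BMDM) of C57BL/6 mice, cells grown for 7 days from marrow with M-CSF and L929-conditioned medium and moved to DMEM with serum the night before stimulation. They were labelled Tet2 knockout or wild type, and each genotype was untreated or exposed to 20 ng/ml IL4, a type 2 cytokine that drives alternative activation, for 10 or 24 h. Each of the 6 groups had 2 libraries, called biological replicates in the design text, and the allele that removes Tet2 in these mice is not given there. The other 8 libraries hold RNA of tumour-associated macrophages (TAM) of C57BL/6J mice. These cells carried CD11b+F4/80+ on sorting and were taken at 4 weeks from melanomas that cells of the mouse line YUMM1.7 had formed under the skin. The 4 labelled knockout animals were LysMcre +/wt, Tet2 fl/fl, in which Cre is made in myeloid cells. The 4 wild-type animals were LysMcre wt/wt, Tet2 fl/fl, so they carried the floxed alleles without Cre. The 4 libraries of immunoprecipitated 5-hydroxymethylcytosine were not analysed here.

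Cells make cholesterol from acetyl-CoA through mevalonate, isoprenoid pyrophosphates, squalene and lanosterol. When sterols in the endoplasmic reticulum run low, the escort protein SCAP carries SREBP2 to the Golgi, where proteases release the part of it that enters the nucleus and binds sterol response elements, often beside NF-Y at a CCAAT box. When sterols are plentiful, INSIG proteins hold SCAP back, and macrophages store surplus cholesterol as esters or pass it to lipoproteins.

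The genes move together in the results below, so stretches of their promoters are shown for the SREBP2 and NF-Y letters. RefSeq promoter windows (GRCm38.p6, 250 bases before to 50 bases after each start) were found for 24 of the 28 genes, in 32 windows; Fdps, Fdft1, Sqle and Stard4 were not matched. Both strands were searched for TCACNCCAC, a sterol response element-like run, for CCAAT, the letters bound by NF-Y, and for GGGCGG, a GC box, and none of the 3 runs contains another. CCAAT lay in 22 of the 32 windows (68.8%), against 37.4% of all 32851 windows in the table. GGGCGG lay in 24 (75.0%), against 35.7% of all windows. TCACNCCAC lay in 1 (3.12%), that of Hmgcs1, against 1.24% of all windows. By gene, 21 of the 24 had CCAAT in at least 1 window, among them 15 of the 16 matched enzymes. With CCAAT in nearly all of them, a match could not separate enzymes that rose with IL4 from those that did not. The by-gene share over all genes was not computed, and a gene with several windows has more chances of a match. The 150 bases before the start are given for Idi1 (chr13:8885456-8885605 on the plus strand), Cyp51 (chr5:4104698-4104847 on the minus strand) and Nsdhl (chrX:72918371-72918520 on the plus strand), which were among the steepest risers with IL4. Acat2 (chr17:12960726-12960875 on the minus strand) rose and had no CCAAT in this stretch, Ggps1 (chr13:14063489-14063638 on the minus strand) did not pass the test for IL4 at any time and had it, and Hmgcs1 (chr13:119690201-119690350 on the plus strand) held the sterol response element-like run. Capitals mark TCACNCCAC or CCAAT on the printed strand, or ATTGG, which is CCAAT on the other strand. Each is printed 5′ to 3′ along the gene's own strand.
Idi1: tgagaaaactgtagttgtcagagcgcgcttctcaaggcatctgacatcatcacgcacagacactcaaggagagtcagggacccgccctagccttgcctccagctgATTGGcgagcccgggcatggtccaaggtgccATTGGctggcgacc
Cyp51: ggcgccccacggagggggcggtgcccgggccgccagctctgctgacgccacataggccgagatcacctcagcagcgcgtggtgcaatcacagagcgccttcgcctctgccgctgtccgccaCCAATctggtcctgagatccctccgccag
Nsdhl: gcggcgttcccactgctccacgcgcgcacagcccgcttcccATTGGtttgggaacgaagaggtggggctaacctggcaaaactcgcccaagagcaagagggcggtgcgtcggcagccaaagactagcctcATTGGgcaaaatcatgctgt
Acat2: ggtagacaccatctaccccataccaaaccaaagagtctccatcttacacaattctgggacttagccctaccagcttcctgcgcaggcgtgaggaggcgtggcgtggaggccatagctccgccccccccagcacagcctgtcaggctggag
Ggps1: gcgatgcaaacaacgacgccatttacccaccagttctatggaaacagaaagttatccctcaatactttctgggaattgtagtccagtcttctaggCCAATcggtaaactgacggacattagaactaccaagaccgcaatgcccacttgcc
Hmgcs1: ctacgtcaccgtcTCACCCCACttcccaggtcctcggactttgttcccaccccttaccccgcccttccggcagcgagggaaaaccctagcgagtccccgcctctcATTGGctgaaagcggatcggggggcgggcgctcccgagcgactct

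Values are FPKM, fragments scaled to transcript length and to the mapped reads of the library, as deposited by the authors. Total FPKM ran from 365118 to 557183 in BMDM and from 337994 to 464812 in TAM. BMDM libraries were made after ribosomal RNA depletion and TAM libraries from polyadenylated RNA, so levels are not compared between the tables. All 8 macrophage markers examined, Cd68, Csf1r and Adgre1 among them, reached 1 FPKM in both tables. Tet2 RNA was not lower in the labelled knockout libraries throughout. In BMDM it ranged from 4.02 to 4.48 FPKM in labelled knockout and from 4.11 to 5.91 FPKM in wild-type cells untreated, from 7.22 to 8.19 and from 8.74 to 8.81 FPKM at 10 h, and from 10.32 to 11.3 and from 9.38 to 9.82 FPKM at 24 h. So the groups overlapped before IL4, and labelled knockout was the lower one at 10 h and the higher one at 24 h. In TAM it ranged from 14.4 to 19.0 FPKM in labelled knockout and from 7.75 to 16.1 FPKM in wild-type cells. Which part of the transcript is deleted is not given in the sources used here, so the genotype is written as labelled. The TAM protocol names male mice, but 7 of the 8 TAM libraries had Xist at 62.4 to 128 FPKM and the Y-linked gene Eif2s3y at or below 0.0642 FPKM. The remaining one, wild-type replicate 8, had Xist at 0.414 FPKM and Eif2s3y at 21.5 FPKM. All 12 BMDM libraries had Xist at or below 0.0072 FPKM and Eif2s3y at 27.5 to 43.4 FPKM.

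Tests took genes with 1 FPKM or more in at least 2 BMDM or 4 TAM libraries, which kept 26 of the 28 genes in BMDM and 25 in TAM. Hmgcs1, the enzyme before the rate-limiting step of the pathway, was listed at 0 in all 20 libraries, which in a table without counts can be a failed estimate and is not read as absence. Ch25h, which makes an oxysterol that blocks SREBP2 processing, stayed below 1 FPKM in BMDM, with a highest value of 0.984 FPKM in a labelled knockout library at 10 h. Lss and Hsd17b7 were tested in BMDM and not in TAM. Differences are on the log2(FPKM + 1) scale with their standard error, which understates the change of genes of low FPKM. A gene passed when its limma p was under 0.05 after Benjamini-Hochberg adjustment over the whole table of tested genes.

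Most of the pathway was higher with IL4 in both genotypes, by a step at 10 h and a larger one at 24 h. The labels give no untreated group at 10 or 24 h. In every comparison with untreated cells, IL4 therefore cannot be told apart from time since the start of exposure. In labelled knockout BMDM, 13 of the 26 tested genes rose and 1 fell at 10 h, against 24.2% of all 10510 genes tested that rose and 14.6% that fell. At 24 h, 16 rose and 2 fell in labelled knockout cells, against 26.5% and 17.1% of all genes. In wild-type BMDM, 15 rose and 1 fell at 10 h (28.2% and 14.2% of all genes), and 19 rose and 2 fell at 24 h (29.7% and 20.3% of all genes). The median difference of the 26 genes at 24 h was 0.73 in labelled knockout and 0.95 in wild-type cells, where the medians of all genes were 0.07 and 0.06. Between 10 and 24 h of IL4, 12 rose and 1 fell in labelled knockout cells (12.1% and 10.9% of all genes), and 15 rose and 1 fell in wild-type cells (11.6% and 14.3% of all genes). Without labelled knockout replicate 2 at 0 h or replicate 1 at 10 h the 10 h count in labelled knockout cells fell to 8 or 9, and without labelled knockout replicate 1 at 10 h or replicate 2 at 24 h the count between 10 and 24 h was 8. Without wild-type replicate 1 at 10 h, or with only the 4 compared libraries in the fit, the wild-type count between 10 and 24 h was 10.

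**Figure D1:**
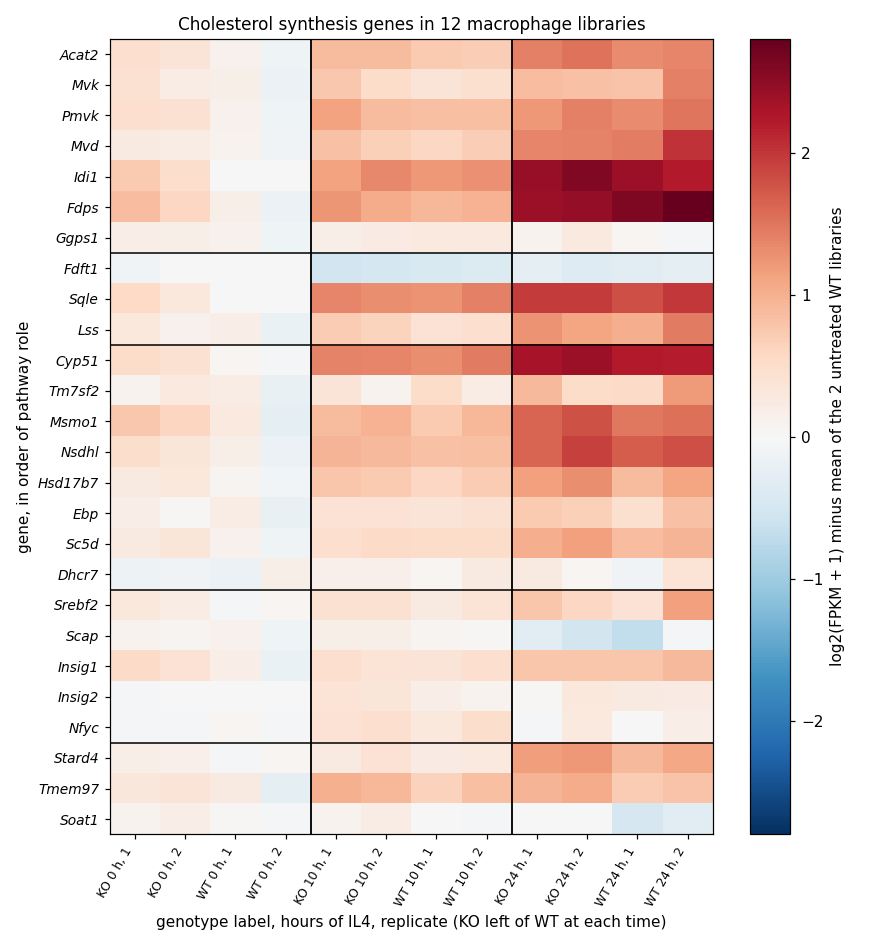
Levels of the 26 tested genes in the 12 BMDM libraries, as log2(FPKM + 1) minus the mean of the 2 untreated wild-type libraries, with horizontal lines between pathway roles and vertical lines between times. Red deepens from 0 to 24 h for most enzymes in both genotypes, while Ggps1 and Dhcr7 stay pale, Fdft1 is blue with IL4, and the untreated labelled knockout libraries are redder than the untreated wild-type libraries.

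Among the mevalonate and isoprenoid enzymes, 6 of the 7 tested rose at 24 h in each genotype and 5 of the 7 rose at 10 h in each. Fdps, which joins isoprene units into farnesyl pyrophosphate, had the largest 24 h difference of the 26 genes in wild-type cells, while Idi1 had the largest in labelled knockout cells. Fdps had 26.9 and 21.9 FPKM at 0 h, 35.1 and 30.2 FPKM at 10 h and 79.2 and 83.1 FPKM at 24 h in labelled knockout cells, and 16.01 and 12.75, 28.03 and 28.91, and 92.7 and 105.8 FPKM at the same times in wild-type cells. No value overlapped one of an earlier time in either genotype. The 24 h difference from untreated was 1.70 ± 0.14 (adjusted p = 4.37e-06) in labelled knockout and 2.71 ± 0.14 (adjusted p = 1.38e-07) in wild-type cells. The ratio of mean FPKM was 3.33 in labelled knockout cells and 6.90 in wild-type cells. Idi1, which isomerises isopentenyl pyrophosphate, had 8.30 and 6.92 FPKM at 0 h, 11.2 and 13.1 at 10 h and 29.5 and 32.7 at 24 h in labelled knockout cells, and 4.60 and 4.58, 12.1 and 12.6, and 28.6 and 25.0 in wild-type cells. Its 24 h difference was 1.90 ± 0.12 in labelled knockout and 2.31 ± 0.12 in wild-type cells (adjusted p = 5.46e-07 and 1.26e-07). Its wild-type libraries lay below the labelled knockout ones at 0 h and at 24 h without overlap, and among them at 10 h.

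The other enzymes of this stage rose by less. Mvd, which decarboxylates phosphorylated mevalonate, rose at 24 h by 1.15 ± 0.16 in labelled knockout and by 1.73 ± 0.16 in wild-type cells, where its libraries spread from 17.6 to 26.9 FPKM. Acat2, the thiolase that makes acetoacetyl-CoA, reached 20.4 and 22.1 FPKM in labelled knockout and 19.1 and 19.8 FPKM in wild-type cells at 24 h, against 10.2 and 9.38 FPKM and 7.78 and 6.40 FPKM in the untreated cells of each genotype. Pmvk, which phosphorylates phosphomevalonate, rose by 0.86 ± 0.12 and 1.41 ± 0.12 at 24 h. Mvk, which phosphorylates mevalonate, rose by 0.51 ± 0.18 in labelled knockout cells (adjusted p = 0.044) and by 1.11 ± 0.18 in wild-type cells, and the labelled knockout call was lost whichever of the compared libraries was left out (adjusted p = 0.064 to 0.223). Ggps1, at the branch toward protein prenylation, stood at 8.80 to 11.96 FPKM in all 12 libraries and passed in none of these comparisons.

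The 3 enzymes that carry farnesyl pyrophosphate to lanosterol split. Sqle, the squalene epoxidase, had 7.09 and 5.76 FPKM at 0 h, 13.2 and 12.6 at 10 h and 20.4 and 20.6 at 24 h in labelled knockout cells, and 4.52 and 4.52, 12.3 and 13.6, and 18.2 and 20.9 in wild-type cells. Its 24 h difference was 1.54 ± 0.11 in labelled knockout and 1.89 ± 0.11 in wild-type cells (adjusted p = 1.65e-06 and 3.51e-07). Lss, which closes the rings of lanosterol, rose at 24 h by 0.98 ± 0.16 and 1.24 ± 0.16. Fdft1, the squalene synthase at the branch point to sterols, went the other way. It had 57.8 and 61.7 FPKM at 0 h, 42.8 and 43.7 at 10 h and 50.9 and 48.2 at 24 h in labelled knockout cells, and 61.3 and 62.8, 45.8 and 47.0, and 50.2 and 51.8 in wild-type cells. The untreated libraries were the highest in each genotype with no overlap, and Fdft1 fell at 10 h by 0.46 and 0.41 on the log2 scale (adjusted p = 0.00196 and 0.00339) and at 24 h by 0.27 and 0.28 (adjusted p = 0.0288 and 0.0209). The 24 h call in labelled knockout cells was lost when any of the 4 compared libraries was left out (adjusted p = 0.0619 to 0.194), and that in wild-type cells without replicate 1 at 24 h (adjusted p = 0.0546).

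Of the 8 enzymes from lanosterol to cholesterol, 6 rose at 24 h in labelled knockout and 7 in wild-type cells. Cyp51, the lanosterol demethylase, had 6.86 and 6.41 FPKM at 0 h, 13.5 and 13.2 at 10 h and 26.4 and 27.8 at 24 h in labelled knockout cells, and 4.74 and 4.28, 12.6 and 14.2, and 24.7 and 24.2 in wild-type cells. These steps were wider apart than the pairs of libraries, and the 24 h difference was 1.88 ± 0.09 in labelled knockout and 2.21 ± 0.09 in wild-type cells (adjusted p = 1.09e-07 and 3.37e-08). The enzymes that strip the next methyl groups followed. Nsdhl rose by 1.36 ± 0.13 and 1.75 ± 0.13, Msmo1 by 1.02 ± 0.16 and 1.52 ± 0.16, and Hsd17b7, which stayed at or below 4.02 FPKM, by 0.96 ± 0.11 and 1.00 ± 0.11. Ebp, a sterol isomerase, rose by 0.59 ± 0.15 and 0.64 ± 0.15, and Sc5d, a sterol desaturase, by 0.80 ± 0.10 and 0.90 ± 0.10. The labelled knockout call of Ebp was lost without replicate 2 at 0 h (adjusted p = 0.0764) or replicate 1 at 24 h (adjusted p = 0.0539). Tm7sf2, a sterol reductase below 5.78 FPKM, rose by 0.87 ± 0.23 in wild-type cells (adjusted p = 0.0101) and differed by 0.52 ± 0.23 in labelled knockout cells (adjusted p = 0.0936). Its wild-type call was lost without replicate 2 at 0 h or at 24 h (adjusted p = 0.0928 and 0.0792). Dhcr7, the last reductase of its route, lay between 1.55 and 2.74 FPKM throughout and did not pass (24 h differences 0.27 ± 0.16 and 0.14 ± 0.16).

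**Figure D2:**
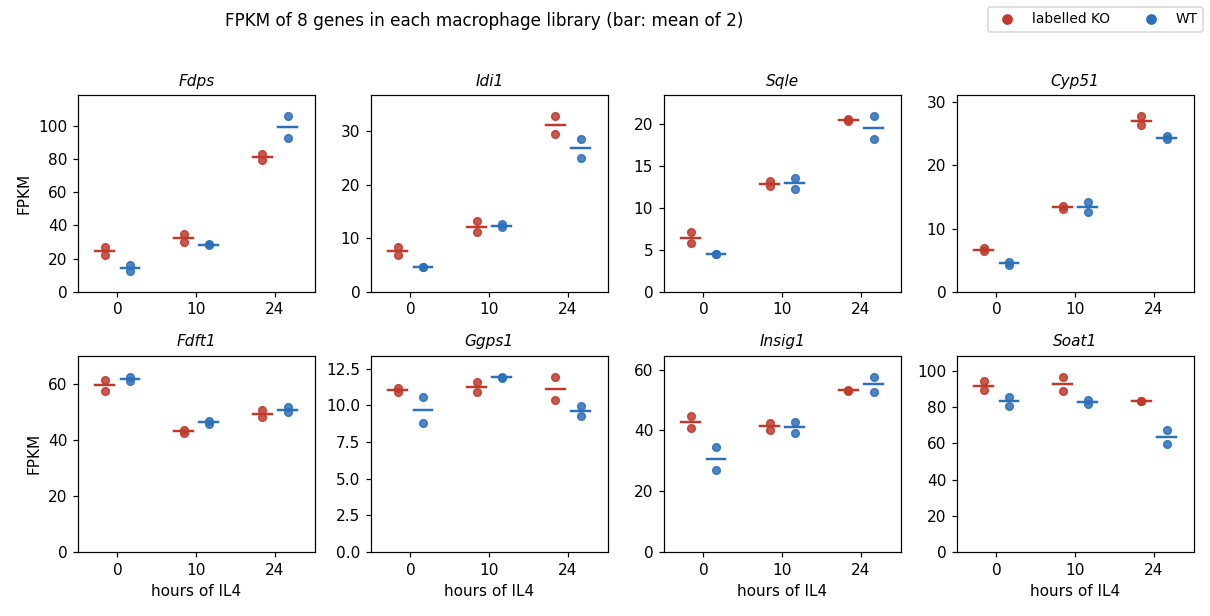
FPKM of 8 genes against hours of IL4 in each BMDM library, with labelled knockout to the left of wild type and bars at the mean of 2 libraries. Fdps, Idi1, Sqle and Cyp51 climb at each time, Fdft1 is highest at 0 h, Ggps1 stays between 8.80 and 11.96 FPKM, and Soat1 is lower at 24 h in wild-type libraries than in labelled knockout libraries.

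Of the 5 genes of sterol sensing and transcription, 1 fell at 24 h in labelled knockout cells and 2 rose in wild-type cells. Srebf2, the gene of SREBP2, rose at 24 h by 0.78 ± 0.19 in wild-type cells (adjusted p = 0.0062), where its libraries read 9.41 and 16.3 FPKM, and differed by 0.43 ± 0.19 in labelled knockout cells (adjusted p = 0.0898), which read 12.4 and 10.7 FPKM. Insig1, itself an SREBP2 target that retains SCAP, had 44.6 and 40.8 FPKM at 0 h, 42.5 and 40.0 at 10 h and 53.2 and 53.1 at 24 h in labelled knockout cells, and 34.6 and 26.8, 39.2 and 42.8, and 52.7 and 57.7 in wild-type cells. It rose by 0.84 ± 0.12 at 24 h in wild-type cells (adjusted p = 0.000295) and differed by 0.31 ± 0.12 in labelled knockout cells (adjusted p = 0.0615). Insig2, a second retention protein, rose at 10 h in labelled knockout cells (0.39 ± 0.10, adjusted p = 0.00901), and not without either untreated library or replicate 1 at 10 h (adjusted p = 0.0511 to 0.0579). Scap fell by 0.49 at 24 h in labelled knockout cells (adjusted p = 0.0462) and differed by -0.37 ± 0.18 in wild-type cells, and the labelled knockout call was lost without any 1 of its 4 libraries (adjusted p = 0.0626 to 0.234). Nfyc, a subunit of NF-Y, rose at 10 h by 0.47 ± 0.12 in labelled knockout and by 0.39 ± 0.12 in wild-type cells and did not pass at 24 h. Its 10 h calls were lost without either untreated library or replicate 2 at 10 h in labelled knockout cells (adjusted p = 0.0536 to 0.067), and without replicate 2 at 0 h or at 10 h in wild-type cells (adjusted p = 0.126 and 0.189).

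Of the genes of transport and modification, Stard4, which carries sterols between membranes, rose late, reaching 4.95 and 5.18 FPKM at 24 h in labelled knockout and 3.95 and 4.58 FPKM in wild-type cells, against at most 2.52 FPKM in any library at 0 or 10 h (24 h differences 1.05 ± 0.10 and 0.99 ± 0.10). Tmem97, a sterol-regulated membrane protein, rose by 10 h (0.64 ± 0.14 in labelled knockout, 0.75 ± 0.14 in wild-type cells) and differed by only 0.02 and 0.01 between 10 and 24 h. Soat1, which esterifies cholesterol for storage, had 59.8 and 67.3 FPKM at 24 h in wild-type cells, against 85.7 and 80.7 FPKM untreated (-0.38 ± 0.10, adjusted p = 0.00827), and 83.2 and 83.3 FPKM at 24 h in labelled knockout cells, against 89.4 and 94.3 FPKM untreated (-0.14 ± 0.10, adjusted p = 0.281).

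**Figure D3:**
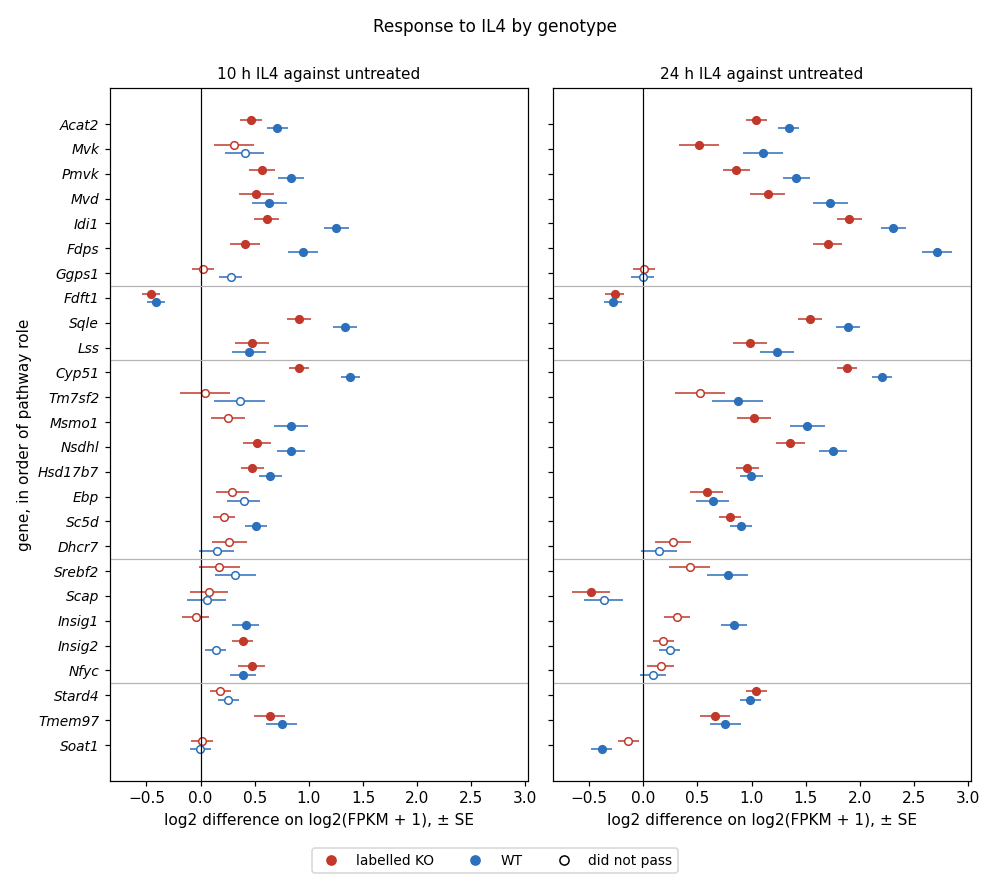
Difference from untreated at 10 h (left) and 24 h (right) of IL4 on the log2(FPKM + 1) scale, ± standard error, for 26 genes in order of pathway role, with labelled knockout above wild type in each row and open circles where the test was not passed. At 24 h Fdps, Idi1 and Cyp51 lie farthest to the right in both genotypes, and Fdft1 lies left of 0.

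The enzymes kept to 1 pattern over the 12 BMDM libraries, apart from 3. Pearson's r of each enzyme with the mean log2(FPKM + 1) of the other 17 tested was 0.82 to 0.99 for 15 of the 18, and 0.07 for Ggps1, -0.59 for Fdft1 and 0.43 for Dhcr7. These libraries share the same 6 groups, so r is a description of the time course. Ranked by r with the mean of all 18 enzymes among the 10510 genes, Insig1, Srebf2 and Scap, which are not part of that mean, stood at ranks 332, 717 and 8448. Genes outside the list with the most similar pattern, all at r of 0.98 to 0.99, included Calr, Gpc1, Sdf2l1, Vwf, Cytip, Tagln2, Taf12, Prdx2 and Hax1.

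Neighbouring lipid pathways gave the following counts at 24 h of IL4, when 26.5% of all genes rose and 17.1% fell in labelled knockout cells and 29.7% rose and 20.3% fell in wild-type cells. Of 13 tested genes of fatty acid synthesis, the program of the related factor SREBP1, 9 rose and 1 fell in labelled knockout cells and 10 rose and none fell in wild-type cells. Scd2, a stearoyl-CoA desaturase, averaged 26.4 ± 0.1 FPKM in labelled knockout and 18.9 ± 2.1 FPKM in wild-type cells at 24 h (SD, n = 2 each), against 2.01 ± 0.10 and 1.51 ± 0.04 FPKM untreated. Acaca, which makes malonyl-CoA, rose by 1.22 ± 0.08 and 1.02 ± 0.08. Of 14 genes of sterol efflux and of the sterol receptor LXR, 3 rose and 6 fell in labelled knockout and 4 rose and 6 fell in wild-type cells. The exporter Abca1 fell by 1.4 in labelled knockout and by 1.5 in wild-type cells on the log2 scale, while the exporter Abcg1 rose by 1.85 ± 0.12 and 1.72 ± 0.12. Of 12 genes of the other isoprenoid branches, 5 rose and 1 fell in labelled knockout and 5 rose and 2 fell in wild-type cells, and of 10 genes for SREBP cleavage and sterol-regulated degradation, 2 rose and none fell, and 1 rose and 2 fell. Cell cycle genes moved with the module, as all 10 examined rose in labelled knockout and 8 of 10 in wild-type cells at 24 h, with summed levels of 352.9 to 417.4 FPKM at 24 h in labelled knockout and 267.9 to 269.1 FPKM in wild-type cells, against 159.6 to 162.4 FPKM and 107.1 to 133.9 FPKM untreated. Macrophage markers fell for 5 of 8 genes in each genotype. The part of either in the response of the cholesterol genes was not tested, and in bulk samples fewer cells of a type and less RNA per cell cannot be told apart.

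Before IL4, several enzymes were higher in labelled knockout than in wild-type BMDM. In untreated cells 4 of the 26 tested genes were higher and none lower, against 1.89% and 0.809% of all genes, and 12 had an unadjusted p under 0.05, as did 14.5% of all genes. All 4 are enzymes. Fdps (26.9 and 21.9 FPKM in labelled knockout, 16.01 and 12.75 in wild-type cells) differed by 0.72 ± 0.14 (adjusted p = 0.0188), Idi1 (8.30 and 6.92, against 4.60 and 4.58) by 0.62 ± 0.12 (adjusted p = 0.0177), Cyp51 (6.86 and 6.41, against 4.74 and 4.28) by 0.47 ± 0.09 (adjusted p = 0.0215) and Msmo1 (34.5 and 31.0, against 24.3 and 16.4) by 0.69 ± 0.16 (adjusted p = 0.0497). Labelled knockout values lay above wild-type values without overlap for 18 of the 26 genes and below for 1, where 27.8% and 14.7% of all genes did so. The median difference was 0.26 over the 26 genes and 0.06 over all genes. The sterol sensor Insig1 (44.6 and 40.8, against 34.6 and 26.8 FPKM) differed by 0.47 ± 0.12 (adjusted p = 0.0829), and Srebf2 by 0.25 ± 0.19.

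These untreated calls rest on few libraries. The count was 10 without wild-type replicate 1, 0 without wild-type replicate 2, 0 without labelled knockout replicate 1, 2 without labelled knockout replicate 2, 0 when only the 4 untreated libraries were fitted, and 7 after quantile normalization. Nr1h3, the gene of LXR alpha, was the single gene of the 14 of sterol efflux and LXR that passed, with 9.20 and 10.3 FPKM in labelled knockout and 3.87 and 3.87 FPKM in wild-type cells (1.14 ± 0.15, adjusted p = 0.00303), and none of the 13 fatty acid synthesis genes passed. Fibroblast markers moved with genotype. The summed FPKM of 8 markers was 21.0 to 22.9 in labelled knockout and 4.48 to 4.82 in wild-type untreated cells, 3 of 3 tested were higher in labelled knockout cells at every time, and Col3a1, Lum, Pdgfra and Thy1 stayed under 1 FPKM in all 12 libraries. Cell cycle genes summed to 159.6 to 162.4 FPKM in labelled knockout and 107.1 to 133.9 FPKM in wild-type untreated cells, with no overlap and none of the 10 passing. B cell markers summed to 2.86 to 3.18 FPKM in labelled knockout and 0.42 to 1.4 FPKM in wild-type untreated cells, where Cd79b, the 1 of 4 tested, passed (1.06 ± 0.20, adjusted p = 0.0188). Endothelial markers summed to 1.58 to 1.6 and 1.01 to 1.2 FPKM in the same groups, and neither of the 2 tested passed. Of these markers, Cdh5 and Tie1 stayed under 1 FPKM in all 12 BMDM libraries. The part of any of these lists in the enzyme differences was not tested.

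With IL4 fewer of these genes passed for genotype. At 10 h none of the 26 genes passed, against 2.84% of all genes, 1 had an unadjusted limma p under 0.05 (10.6% of all genes did), and the median difference was 0.10. At 24 h Soat1 alone passed (83.2 and 83.3 FPKM in labelled knockout, 59.8 and 67.3 in wild-type cells, 0.39 ± 0.10, adjusted p = 0.0411), against 5.29% of all genes that were higher and 2.14% lower. That call was lost without either labelled knockout library or without wild-type replicate 1 at 24 h (adjusted p = 0.0862 to 0.183), with only the 4 compared libraries in the fit (adjusted p = 0.215) and with a filter of 1 FPKM in every library (adjusted p = 0.0537). Without wild-type replicate 1, Mvd (-0.64), Mvk (-0.57) and Srebf2 (-0.47) were lower in labelled knockout cells. Cell cycle genes were higher in labelled knockout cells at 24 h for 8 of 10. Macrophage markers were lower for 3 of 8, with summed levels of 7312 to 7375 FPKM in labelled knockout and 9743 to 11380 FPKM in wild-type cells. Neutrophil markers were lower for 2 of 4, Camp (adjusted p = 0.0272) and S100a9 (adjusted p = 0.0439), with summed levels of 54.26 to 90.11 FPKM in labelled knockout and 130.1 to 136.7 FPKM in wild-type cells. Endothelial markers summed to 3.64 to 4.81 FPKM in labelled knockout and 2.38 to 2.44 FPKM in wild-type cells. Of the 2 tested, Pecam1 was higher in labelled knockout cells (adjusted p = 0.00928), while Kdr differed by -0.04 and did not pass. B cell markers summed to 2.1 to 2.49 and 1.41 to 1.6 FPKM in the same groups, and Cd79b did not pass. The 8 fibroblast markers summed to 9.24 to 9.46 FPKM in labelled knockout and 2.43 to 2.45 FPKM in wild-type cells. The part of any of these lists in the 24 h differences was not tested. Averaged over the 3 times, 5 genes were higher and none lower (7.06% and 2.88% of all genes), namely Acat2 (0.24 ± 0.06), Idi1 (0.27 ± 0.07), Cyp51 (0.20 ± 0.05), Msmo1 (0.33 ± 0.09) and Soat1 (0.23 ± 0.06), and the count ranged from 0 to 11 as single libraries were left out, with 11 without untreated wild-type replicate 1 and 0 without labelled knockout replicate 1 at 0 h, replicate 2 at 10 h or replicate 2 at 24 h or either wild-type library at 10 h. With median-of-ratios scaling the count was 3.

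**Figure D4:**
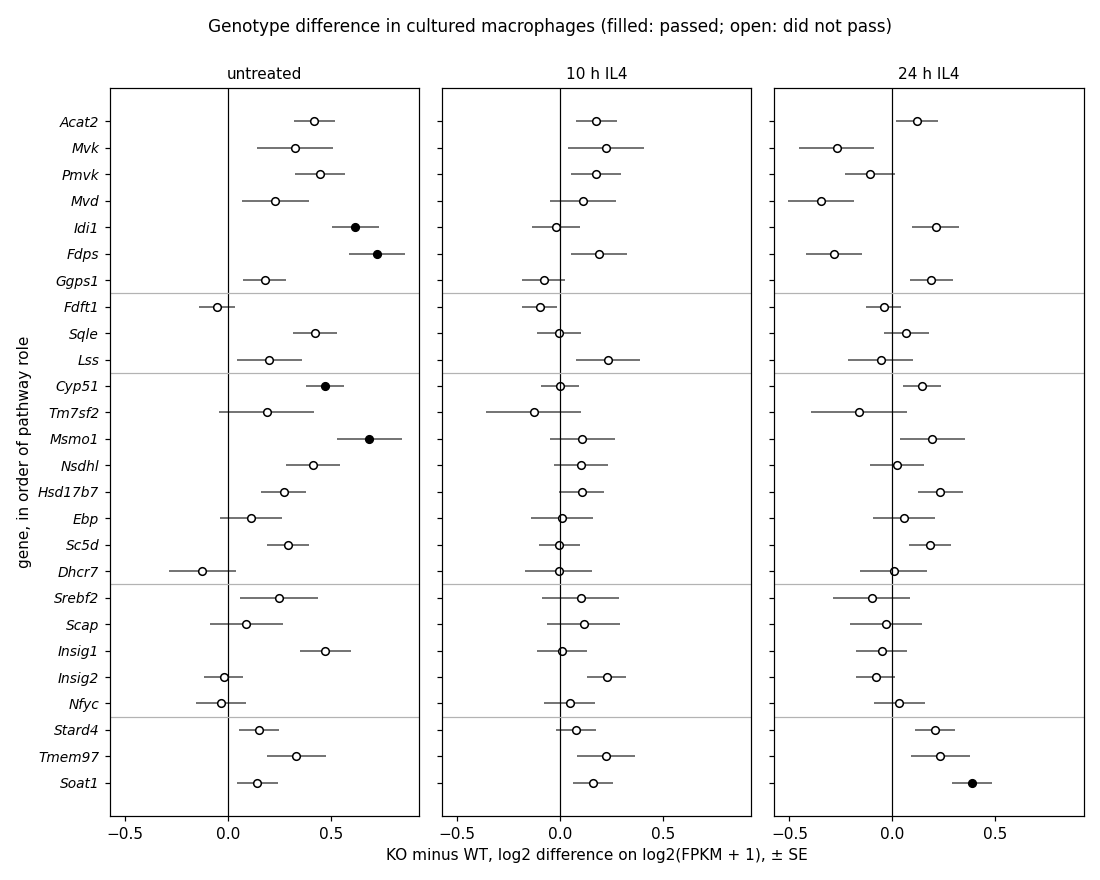
Labelled knockout minus wild type on the log2(FPKM + 1) scale, ± standard error, for 26 genes in untreated BMDM and at 10 and 24 h of IL4, with filled circles where the test was passed. Most points lie right of 0 in untreated cells, where Fdps, Idi1, Cyp51 and Msmo1 are filled, and only Soat1 is filled at 24 h.

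The difference between the genotypes in their IL4 response was tested as an interaction and passed for none of the 26 genes at either time, against 0.0951% of all genes at 10 h and 0.295% at 24 h. At an unadjusted limma p under 0.05 there were 6 genes at 10 h and 8 at 24 h, where 4.07% and 18.2% of all genes had one. The interaction estimate, labelled knockout minus wild type, was below 0 for 16 of the 18 tested enzymes at 10 h, Fdft1 with its larger fall in labelled knockout cells among them, and for 15 at 24 h, with medians of -0.26 and -0.34, where 39.8% and 47.8% of all genes lay above 0 and the medians of all genes were -0.05 and -0.02. Both genotypes' responses share the untreated libraries with the comparison above, so this is not a separate observation. Fdps had the smallest adjusted p at 24 h (-1.01 ± 0.19, adjusted p = 0.0594), followed by Pmvk (-0.55 ± 0.17, adjusted p = 0.158) and Insig1 (-0.52 ± 0.17, adjusted p = 0.174). Fdps passed when values were rescaled by the median of ratios (-1.01, adjusted p = 0.0235) or quantile normalized (-0.95, adjusted p = 0.0259), and without wild-type replicate 1 at 0 h (adjusted p = 0.0109) or at 24 h (adjusted p = 0.0465), where 4 and 2 of the 26 genes passed.

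In macrophages from melanomas none of the 25 tested genes passed for genotype, against 0.101% of all 9897 genes tested. An unadjusted limma p under 0.05 was found for 5 of them, as for 16.9% of all genes. Of the 25 genes 20 lay above 0, with a median of 0.21, where 61.9% of all genes did and their median was 0.09. Idi1 came closest, with 4.68, 5.55, 7.68 and 5.78 FPKM in labelled knockout and 2.61, 3.37, 2.83 and 3.89 FPKM in wild-type TAM. The lowest labelled knockout library stood above the highest wild-type one (0.72 ± 0.16, adjusted p = 0.122). On values as deposited the groups did not overlap for 3 genes (Idi1, Nsdhl and Soat1), all higher in labelled knockout TAM. Of all genes, 9.13% did so upward. Median-of-ratios scale factors were 1.023 to 1.048 in labelled knockout and 0.936 to 1.014 in wild-type libraries. They were not applied to these counts, which can change with scaling. Soat1 had 49.99, 47.2, 48.4 and 47.5 FPKM in labelled knockout and 38.1, 43.4, 39.0 and 29.4 FPKM in wild-type TAM (0.37 ± 0.14, adjusted p = 0.241). Nsdhl had 7.63, 6.12, 6.71 and 6.30 FPKM in labelled knockout and 5.70, 5.66, 5.72 and 5.598 FPKM in wild-type TAM (0.20 ± 0.10, adjusted p = 0.34).

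The remaining enzymes overlapped between the TAM groups. Fdps had 8.55, 9.004, 7.73 and 6.55 FPKM in labelled knockout and 5.83, 5.69, 5.51 and 6.75 FPKM in wild-type TAM (0.36 ± 0.12, adjusted p = 0.216), with 1 labelled knockout library below the highest wild-type one. Msmo1 averaged 8.67 ± 0.91 FPKM in labelled knockout and 6.48 ± 1.19 FPKM in wild-type TAM, and Cyp51 4.29 ± 0.95 and 3.13 ± 0.46 FPKM (SD, n = 4 each). Insig1 had 35.5, 39.5, 23.5 and 23.3 FPKM in labelled knockout and 19.9, 25.5, 23.3 and 17.1 FPKM in wild-type TAM (0.46 ± 0.21, adjusted p = 0.308), so its groups overlapped. Sqle stood low in both groups, at 1.92 ± 0.32 and 1.80 ± 0.63 FPKM. The genes below 0 were Mvk, Pmvk, Dhcr7, Scap and Tmem97, of which Pmvk spread from 19.5 to 31.8 FPKM in labelled knockout and from 12.1 to 52.8 FPKM in wild-type TAM. Ch25h had 0.985, 1.44, 15.1 and 6.00 FPKM in labelled knockout and 1.70, 1.62, 1.90 and 4.56 FPKM in wild-type TAM, with a difference of 0.56 ± 0.63 (adjusted p = 0.662).

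Without wild-type replicate 8, the library apart by Xist and Eif2s3y, again none of the 25 genes passed, 20 lay above 0, and their median was 0.22 against 0.10 for all genes. As deposited, labelled knockout values then lay above the 3 wild-type ones without overlap for 6 genes (Fdps, Idi1, Msmo1, Nsdhl, Soat1 and Stard4). They lay below for Pmvk, where 12% and 4.33% of all genes did so. Scale factors of those 3 wild-type libraries were 0.936 to 0.989, and these counts were not rescaled either. Idi1 then differed by 0.80 (adjusted p = 0.0965). Interferon response genes had a summed level of 1355 to 3072 FPKM in labelled knockout and 164.9 to 1334 FPKM in wild-type TAM, with all 10 above 0 and none passing. Neutrophil markers summed to 1168 to 6878 FPKM in labelled knockout and 1099 to 18770 FPKM in wild-type TAM, and fibroblast markers to 10.5 to 28.5 and 23.9 to 244.6 FPKM. The macrophage markers split over all 8 libraries. Lyz2 (-1.27), Mertk (-0.83), Csf1r (-0.27), Cd14 (-0.14) and Itgam (-0.02) lay below 0 on the log2 scale. Fcgr1 (0.64), Cd68 (0.23) and Adgre1 (0.14) lay above it. Only the labelled knockout animals carried LysMcre. An effect of that allele on a marker such as Lyz2 therefore cannot be told apart from one of Tet2. A sum of FPKM weighs the most abundant markers most, so it does not measure the share of macrophages. Together the 8 macrophage markers summed to 3116 to 5541 FPKM in labelled knockout and 6000 to 7771 FPKM in wild-type TAM, without overlap. Cell cycle genes summed to 187.8 to 330.7 and 143.2 to 178.8 FPKM, and endothelial markers to 20.6 to 50.5 and 5.36 to 19.3 FPKM, in the same order of groups and also without overlap. None of the genes in these lists passed. All 6 melanoma markers were below 1 FPKM in all 8 libraries, with Dct, Tyrp1 and Sox10 at 0. The part of any of these lists in the differences of the cholesterol genes was not tested.

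**Figure D5:**
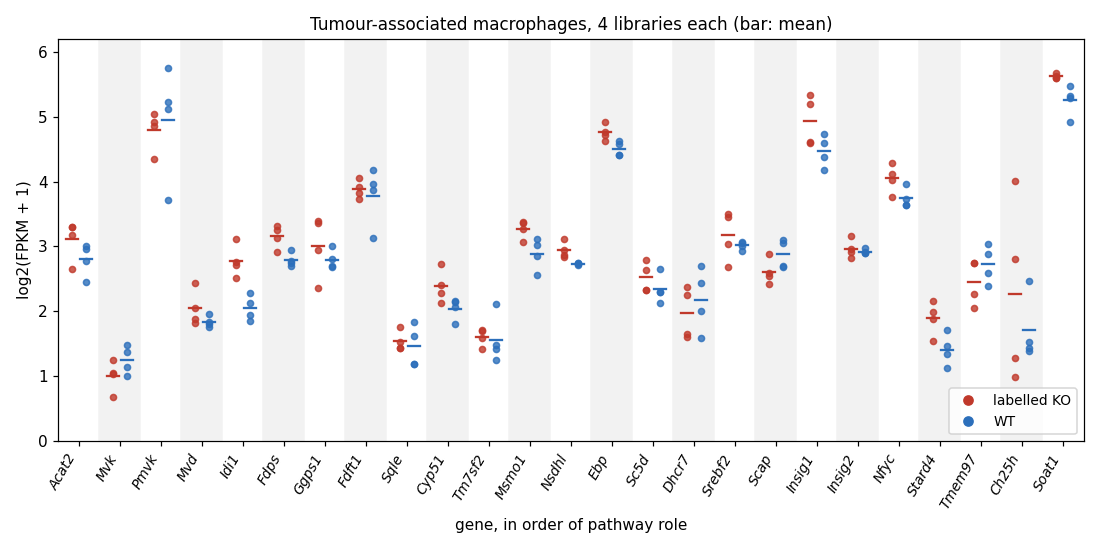
Log2(FPKM + 1) of the 25 tested genes in each of the 8 TAM libraries, labelled knockout to the left of wild type, with bars at the mean of 4 libraries. On values as deposited, Idi1, Nsdhl and Soat1 show no overlap between the groups. Pmvk spreads widely in wild-type libraries, and Ch25h spreads widely in labelled knockout libraries.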

How the data were processed

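RNA was measured in 20 libraries, 12 from BMDM and 8 from TAM. The authors deposited FPKM per gene for each library, made with TopHat and Cuffdiff on the mm9 build, per the submitters' processing notes. Versions, annotation and filters are not given in the sources used here. The BMDM table names its unit, and the TAM table was taken as FPKM from the same notes and its values. FPKM hold no counts, so absolute depth is unknown and no counting interval is given. Steps between the lowest values put depth, relative to the first library, at 0.84 to 1.38 in BMDM and 0.69 to 1.0 in 7 TAM libraries, while labelled knockout TAM replicate 5 was too sparse for an estimate (11137 genes at 0). Of the 23309 gene models, 2 symbols were listed again and the entry of higher mean was kept.

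From these values log2(FPKM + 1) was computed, and limma 3.58.1 under R 4.3.3 fitted it with moderated variances that follow the mean level. The filter kept genes that reached 1 FPKM in no fewer than 2 BMDM or 4 TAM libraries. The BMDM fit took all 12 libraries in 6 groups, and the TAM fit took 8 libraries in 2. Each had 6 residual degrees of freedom, to which the prior added to give 10.3 in BMDM and 8.5 in TAM. Adjusted p-values are Benjamini-Hochberg values over all genes tested, with a threshold of 0.05. The procedure was tested on simulated data. Groups came from the labels. Alternatives were a pseudocount of 0.1, no filter, 1 FPKM in every library, median-of-ratios scaling, quantile normalization, a replicate block, only the libraries compared, and leaving out each library. Promoter letters and figures used Python 3.11.15 with pandas 2.3.3 and matplotlib 3.10.9.

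All 28 members are named. Genes outside them included the up to 4 members of a pathway list with the smallest p. Markers of other cell types were given as summed levels, with a few named that passed for genotype or were low. The macrophage markers in TAM were named, as were genes most correlated with the enzyme mean over BMDM libraries. The members and lists were chosen with earlier results of these data known. Xist and Eif2s3y were examined after the values were seen. Some genes of the pathway are not reported here.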

Additional observations from a re-analysis of the deposited data

Results flagged for a closer look

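Of 52 sets of 4 TAM libraries looked at, each a gene in a genotype where it reached 1 FPKM, 2 held a library apart from the other 3 by Dixon's criterion, which chance meets in about 1 of 20 sets. Both were wild-type replicate 8, the library that also stood apart by Xist and Eif2s3y. Insig2 was at 6.86 FPKM there, against 6.46 to 6.52 FPKM in the other 3 wild-type libraries. Ch25h was at 4.56 FPKM there, against 1.62 to 1.90 FPKM in the other 3.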

How the results depend on the processing

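Of 108 called values of single genes, 107 were kept with a pseudocount of 0.1, 106 with median-of-ratios scaling, 105 with quantile normalization and 94 with no filter, as were 100 of 102 with 1 FPKM in every library and 86 of 103 with only the libraries compared, a setting that gives no value for the average over times. Outside those 108, Soat1 at 10 h of IL4 in labelled knockout cells turned direction, to -0.27 (adjusted p = 0.0226) after quantile normalization from 0.01 with values as deposited. Without each single library in turn, the number of genes that passed ranged from 8 to 10 (labelled knockout) and 12 to 18 (wild type) at 10 h of IL4, 14 to 15 and 20 to 21 at 24 h, and 8 to 10 and 10 to 17 between 10 and 24 h. It ranged from 0 to 10 for genotype in untreated cells, 0 to 3 at 24 h, 0 to 11 averaged over times and 0 to 4 for the interaction at 24 h, and was 0 throughout for genotype at 10 h, the interaction at 10 h and TAM. Where a group was left with 1 library, that library was assumed to vary like the other groups. With only the libraries compared in the fit, which leaves 2 residual degrees of freedom for a pair of BMDM groups, the counts were 10 between 10 and 24 h in wild-type cells, 0 for genotype in untreated cells and 0 at 24 h. For genotype in untreated cells quantile normalization gave 7, and at 24 h the filter of 1 FPKM in every library gave 0. For the average over times median-of-ratios scaling gave 3, and for the interaction at 24 h median-of-ratios scaling and quantile normalization gave 1 each, Fdps. The cause of these moves was not tested. Rescaling moved the median of all tested genes by up to 0.106, at 10 h of IL4 in wild-type cells. Of all calls, the share that was higher moved by over 10 percentage points in 7 comparisons, given here as deposited, with median-of-ratios scaling and quantile normalized. It was 62.3%, 53.9% and 49.1% (labelled knockout) and 66.5%, 54.2% and 49.8% (wild type) at 10 h of IL4, and 60.8%, 54.5% and 48.8%, and 59.4%, 54.5% and 48%, at 24 h. For genotype it was 71.2%, 46.3% and 54.1% at 24 h, 71%, 54.9% and 56% averaged over times, and 50%, 22.2% and 20% in TAM. Whether replicate numbers pair the samples is not known. Deviations of same-numbered libraries correlated at -0.14 to 0.15 over 15 pairs of groups, with 5 over 0.1. With 2 libraries per group these values cannot decide it, and the main fit was not paired. A replicate block gave 0 genes for genotype at 24 h and 3 for the average over times, and kept 99 of the 108 values. The deposited FPKM give no counts, so counting error cannot be separated from the spread between libraries.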
